A study of Mus musculus with 10 samples.

Results

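The 35 genes described here carry glucose into the cell, break it down to pyruvate and lactate, send pyruvate towards mitochondria or divert glucose into the pentose phosphate pathway. They are named enzymes and transporters of textbook pathways and were followed through resting natural killer (NK) cells, NK cells given interleukin 15 (IL-15) and whole splenocytes. Of the 35 genes, 32 had at least 1 microarray probe set assigned to them alone, and each gene was read from the probe set that was brightest on average across the 10 arrays, among 18194 genes represented in this way. Gpi1, Eno1 and G6pdx had no such probe set and were not analysed here.

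NK cells came from spleens of wild-type C57Bl/6 mice and were sorted to more than 99% NK1.1+CD3- cells. A group of 3 samples was lysed at rest straight after sorting, and another group of 3 samples was cultured for 24 h with 100 ng/mL recombinant mouse IL-15. An NK culture without IL-15 was not analysed here, so the effect of the cytokine and the effect of 24 h in culture cannot be told apart. Whole resting splenocytes, for which the labels name neither strain nor genotype, gave 4 chips from 2 biological samples, and the labels do not say which chips share a sample. NK RNA went through 2 amplification cycles and splenocyte RNA through 1 cycle, so in every comparison with splenocytes the amplification and the cell type cannot be told apart. The labels number the NK samples but do not say whether each came from its own animal or a pool, so the p-values measure the spread between these samples, which may be in part technical.

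Glycolysis turns glucose into pyruvate in the cytosol and yields ATP without oxygen. Hexokinase traps glucose as a phosphate, phosphofructokinase commits it, aldolase splits the sugar, and the lower steps from glyceraldehyde-phosphate dehydrogenase to pyruvate kinase yield ATP. Pyruvate is either reduced to lactate by lactate dehydrogenase and exported by monocarboxylate transporters, or enters mitochondria through the pyruvate dehydrogenase complex, which its kinases switch off. The pentose phosphate pathway branches from the first sugar phosphate and makes NADPH and ribose. Activated lymphocytes, NK cells among them, are known to raise glycolysis when they grow, and the transcription factors Myc and hypoxia-inducible factor (HIF) are known regulators of many of these genes.

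The values are linear signals of 1-colour Affymetrix MOE430_2 arrays, scaled by the authors to a common mean within each array. Signals under a floor of 179.85 units, the median of the arrays' 40th percentiles, were raised to it, and tests were made on log2 signals with limma at a Benjamini-Hochberg adjusted p under 0.05 over all genes tested. A log2 difference of 1 is a 2-fold change. Signals of different probe sets are not on 1 scale, so each gene is compared with itself. The number of arrays limits the precision of every value.

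The groups expressed the markers of their labelled cells. All 10 NK markers on the array were above the floor on every NK array, with summed signals of 560464 to 688946 in resting NK cells, 421814 to 459918 after IL-15 and 56455 to 73843 in splenocytes. Summed signals of B-cell, macrophage and monocyte, T-cell and neutrophil markers were higher on the resting NK arrays than on the IL-15 arrays. Those of erythroid and platelet markers overlapped. The summed signal of 11 B-cell markers was 30925, 29070 and 2932 on resting replicates 1, 2 and 3, against 1474 to 1992 after IL-15, where Cd79a, Ms4a1, Cr2 and Ebf1 were at the floor on all arrays. For 11 macrophage and monocyte markers it was 6807, 20547 and 28871 on the resting arrays and 1197 to 1880 after IL-15, and for 10 T-cell markers 16890 to 20643 and 6974 to 8797. Of the 10 T-cell markers, 2 had positive differences in resting NK cells against splenocytes and were not called. Whether NK cells themselves gave part of the T-cell sum was not tested. Sums of 8 neutrophil markers were 1557 to 3835 at rest and 811 to 1267 after IL-15, those of 10 erythroid markers 3183 to 4267 and 3298 to 4230, and those of 7 platelet markers 2021 to 2929 and 2283 to 4002. The ratio of the 3′ to the 5′ control probe set of Gapdh, a sign of RNA integrity and amplification, was 5.88 to 9.54 in resting NK cells, 2.90 to 3.81 after IL-15 and 1.0 to 1.39 in splenocytes, and that of Actb was 2.27 to 6.51, 1.28 to 1.49 and 1.34 to 1.59. The part of other cells and of RNA integrity in the results was not tested, except where a value below bears on it.

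Because many of the 35 genes moved together after IL-15, their promoters were searched for the E-box CACGTG, which Myc can bind, and for the core letters of HIF binding sites, which are ACGTG (here the A core) or, with another first letter, GCGTG (the G core). Both strands of RefSeq windows of 300 bases (250 before to 50 after the annotated start, assembly GRCm38.p6) were read. Of the 35 genes 34 had a window, and every E-box also counts as an A core. A filter by chromosome was applied to the windows of the 35 genes and not to those of all genes. Windows of Ldha and Slc16a1 are shown because they were the genes with an E-box among those that rose after IL-15. Hk2, Pgk1 and Pgam1 are examples of genes that rose with an A core and no E-box, as Aldoa, Aldoc, Gapdh, Pkm and Pdk3 also did. Ldhb is shown because it is the partner of Ldha and did not pass the test. Genes that rose without an A core are not shown. Capitals mark the 3 motifs on either strand, so that CACGT is an A core and CACGC a G core on the other strand.
Ldha: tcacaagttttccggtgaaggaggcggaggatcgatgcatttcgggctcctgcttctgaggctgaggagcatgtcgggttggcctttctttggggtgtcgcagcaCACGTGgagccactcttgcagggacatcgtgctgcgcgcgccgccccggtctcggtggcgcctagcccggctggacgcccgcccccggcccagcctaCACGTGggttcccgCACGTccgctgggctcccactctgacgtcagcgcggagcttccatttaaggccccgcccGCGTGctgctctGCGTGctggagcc
Slc16a1: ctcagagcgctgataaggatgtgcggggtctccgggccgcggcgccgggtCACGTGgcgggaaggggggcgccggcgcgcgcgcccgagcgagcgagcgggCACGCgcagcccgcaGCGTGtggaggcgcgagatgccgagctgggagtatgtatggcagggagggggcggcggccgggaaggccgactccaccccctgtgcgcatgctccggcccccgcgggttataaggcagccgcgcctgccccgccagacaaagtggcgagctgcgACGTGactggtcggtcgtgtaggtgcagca
Hk2: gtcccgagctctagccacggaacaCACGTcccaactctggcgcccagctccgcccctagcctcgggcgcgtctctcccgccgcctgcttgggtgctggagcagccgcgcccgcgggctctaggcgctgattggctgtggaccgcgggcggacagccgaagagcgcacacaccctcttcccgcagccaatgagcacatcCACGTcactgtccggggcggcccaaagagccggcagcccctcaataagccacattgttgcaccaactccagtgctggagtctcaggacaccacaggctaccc
Pgk1: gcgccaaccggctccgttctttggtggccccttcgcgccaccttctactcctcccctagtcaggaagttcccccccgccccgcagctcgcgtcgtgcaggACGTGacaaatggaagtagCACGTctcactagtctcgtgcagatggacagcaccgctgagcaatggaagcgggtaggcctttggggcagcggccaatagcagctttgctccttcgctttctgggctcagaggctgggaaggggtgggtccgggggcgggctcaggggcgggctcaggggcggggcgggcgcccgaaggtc
Pgam1: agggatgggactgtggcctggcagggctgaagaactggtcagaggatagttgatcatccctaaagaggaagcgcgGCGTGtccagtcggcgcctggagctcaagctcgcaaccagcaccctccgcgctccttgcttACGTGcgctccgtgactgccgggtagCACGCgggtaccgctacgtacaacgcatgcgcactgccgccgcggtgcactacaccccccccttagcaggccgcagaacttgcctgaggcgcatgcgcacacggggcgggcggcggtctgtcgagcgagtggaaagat
Ldhb: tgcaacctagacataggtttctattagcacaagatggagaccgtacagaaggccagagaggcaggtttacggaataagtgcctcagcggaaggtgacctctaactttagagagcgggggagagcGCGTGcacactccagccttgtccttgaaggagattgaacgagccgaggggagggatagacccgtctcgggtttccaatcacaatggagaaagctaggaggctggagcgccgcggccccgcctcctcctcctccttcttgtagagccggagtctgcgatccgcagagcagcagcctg

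In Ldha (chr7:46845554-46845853, + strand) the printed window holds 2 E-boxes, 1 more A core and 2 G cores, and in Slc16a1 (chr3:104638414-104638713, + strand) 1 E-box, 1 more A core and 2 G cores. A second Ldha window (chr7:46846832-46847131, + strand), which is not printed, holds 0 E-boxes, 0 A cores and 2 G cores. Hk2 (chr6:82774405-82774704, - strand) and Pgk1 (chrX:106186850-106187149, + strand) each hold 2 A cores, and Pgam1 (chr19:41911621-41911920, + strand) holds 1 A core and 2 G cores. The Ldhb window (chr6:142507908-142508207, - strand) holds 1 G core. The A core was present in a window of 19 of the 34 genes (55.9%), against 21.8% of all 27025 genes, and the G core in 23 (67.6%) against 35.2%. The E-box was in 5 genes (14.7%, against 8.09% of all genes), namely Ldha, Slc16a1, Pfkm, Pfkfb3 and Pdk2. The A core was in 10 of 16 genes that rose (62.5%) and in 7 of 13 tested genes that did not (53.8%), the G core in 10 of 16 (62.5%) and 11 of 13 (84.6%), and the E-box in 2 of 16 (12.5%) and 2 of 13 (15.4%). These shares describe letters in a window and were not tested.

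After 24 h with IL-15, NK cells carried more mRNA of most enzymes on the path from glucose phosphate to lactate. Of the 30 genes that could be tested, 16 rose and 0 fell, while over all 11434 genes tested 14.2% rose and 12.1% fell. The median log2 difference of the 30 genes was 0.63, against -0.085 over all genes. Of the 30 differences 26 were positive, against 5102 of all 11434, and 13 genes rose at least 2-fold, against 1097 of all 11434. On each of the 16 genes, and on no other of the 30, the lowest IL-15 array lay above the highest resting array, so this repeats the 16 calls. Over all genes 2349 of 11434 lay so. By step, 5 of 5 tested enzymes of lower glycolysis rose, 4 of 7 of upper glycolysis, 2 of 4 of lactate handling, 3 of 5 of the pyruvate dehydrogenase group, 1 of 3 hexokinases, 1 of 4 of the pentose phosphate pathway and 0 of 2 glucose transporters. Eno2 and Pdk2 were not tested, with 0 of 6 and 2 of 6 NK arrays above the floor. In bulk samples, a change in the share of cells that express a gene and a change in RNA per cell cannot be told apart, and scaling to a common mean hides a change in total RNA.

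**Figure D1:**
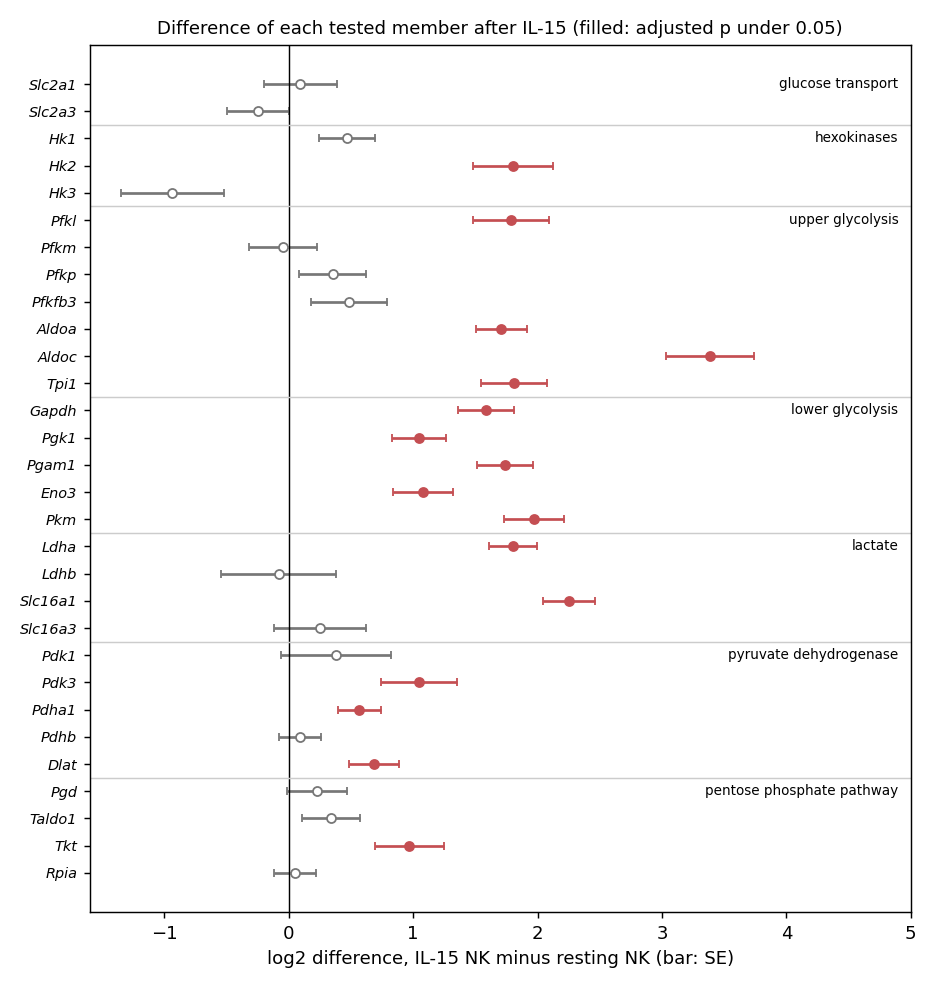
The log2 difference between IL-15 NK cells and resting NK cells (x axis, bars show the standard error, 3 arrays against 3) for the 30 tested genes, grouped by step of the pathway. Filled points passed an adjusted p under 0.05, and the 16 filled points all lie to the right of 0, from 0.57 for Pdha1 to 3.38 for Aldoc.

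The mRNA of the glucose transporters showed no called change in the chosen probe sets, and glucose uptake was not measured. Slc2a1, the basal glucose transporter GLUT1, had signals of 4829, 8590 and 7036 on resting replicates 1 to 3 and of 10501, 5002 and 6720 on IL-15 replicates 1 to 3. The groups overlapped, and the log2 difference was 0.09 ± 0.29 (SE, adjusted p = 0.854). Another probe set of Slc2a1, 1426600_at, was higher by 1.28 ± 0.29 (adjusted p = 0.00974) and the third was not called at 0.70 ± 0.31 (adjusted p = 0.126), so the 3 probe sets of this gene disagree. Slc2a3, the high-affinity transporter GLUT3, was 12184, 14812 and 11752 at rest and 9614, 8132 and 16206 after IL-15, with a log2 difference of -0.25 ± 0.25 (adjusted p = 0.505). The IL-15 arrays of both transporters spread over more than the difference between the groups (SD 0.54 and 0.52 log2 units).

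Among the hexokinases, which trap glucose in the cell, Hk2 rose and the others did not pass. Hk2 encodes the inducible, mitochondria-bound hexokinase. Its signals were 688, 661 and 737 at rest and 3239, 1496 and 2924 after IL-15, so even the lowest IL-15 array was above every resting array. The log2 difference was 1.80 ± 0.32 (3.48-fold, adjusted p = 0.00256). Hk1, the housekeeping hexokinase, had 5637, 3450 and 4423 at rest and 5995, 5248 and 7175 after IL-15, and the groups overlapped (log2 difference 0.46 ± 0.23, adjusted p = 0.16). Hk3, a hexokinase best known from myeloid cells, pointed the other way with 1264, 841 and 2425 at rest and 589, 578 and 1077 after IL-15 (log2 difference -0.94 ± 0.41, adjusted p = 0.124). Its highest resting value was on replicate 3, the array with the highest sum of macrophage and monocyte markers, and its lowest on replicate 2. It was lower by 1.29 with resting replicate 2 left out (adjusted p = 0.0298) and by 1.76 against resting replicate 3 alone, the array with the highest resting value (adjusted p = 0.0123, with the spread taken from the IL-15 arrays). The part of macrophages in this value was not tested.

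Phosphofructokinase, the committing step, is built from liver (Pfkl), muscle (Pfkm) and platelet (Pfkp) subunits, and Pfkl was the subunit that rose. Pfkl had 2456, 2145 and 1892 at rest and 12060, 4724 and 7184 after IL-15, without overlap, a log2 difference of 1.79 ± 0.31 (3.45-fold, adjusted p = 0.00217). Pfkp was already well above the floor at rest, with 17497, 24307 and 14985, and had 32689, 16276 and 24923 after IL-15, overlapping groups with a log2 difference of 0.35 ± 0.27 (adjusted p = 0.373). Pfkm had 1063, 839 and 923 at rest and 1059, 951 and 744 after IL-15, with wide overlap (log2 difference -0.05 ± 0.27, adjusted p = 0.923). Pfkfb3, which makes the allosteric activator of phosphofructokinase, had 765, 550 and 778 at rest and 1278, 960 and 731 after IL-15 (log2 difference 0.48 ± 0.31, adjusted p = 0.278).

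The aldolases, which split the sugar, both rose, and Aldoc had the largest log2 difference of the 30 genes. Aldoa, the widely expressed form, went from 9922, 11754 and 8850 to 42338, 26864 and 31661, a log2 difference of 1.71 ± 0.21 (3.27-fold, adjusted p = 0.000312). Aldoc, best known from brain, was 198, 263 and 231 at rest, just above the floor, and 4014, 1996 and 1704 after IL-15. All 3 IL-15 arrays were above every resting array, and the log2 difference was 3.38 ± 0.36 (10.4-fold, adjusted p = 0.000146). The size of its difference ranged from 2.00, with its probe sets averaged, to 3.63, with IL-15 replicate 3 left out. With the floor at the 60th percentile it was 2.25. Tpi1, which interconverts the products of aldolase, went from 11637, 11254 and 7395 to 50050, 25864 and 32022, a log2 difference of 1.81 ± 0.27 (3.50-fold, adjusted p = 0.000966). On these genes, as on Hk2 and Pfkl, the IL-15 arrays spread more widely than the resting arrays.

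All tested enzymes of ATP-yielding lower glycolysis rose. Gapdh, the dehydrogenase that opens it, is represented by a control probe set near its 3′ end, since the 3 probe sets that carry its symbol alone are all controls. It went from 24186, 25224 and 15372 to 74391, 54569 and 62510, a log2 difference of 1.59 ± 0.23 (3.0-fold, adjusted p = 0.00077). The control probe sets in the middle and at the 5′ end of Gapdh were higher by 2.18 and 2.60, in step with the 3′ to 5′ ratio given above, so the 3′ value is the smallest of the 3. Pgk1, the first ATP-making kinase, had 25478, 28051 and 31211 at rest and 78785, 46854 and 53235 after IL-15 (log2 difference 1.05 ± 0.22, 2.06-fold, adjusted p = 0.00583). Its 2 other probe sets were higher by 2.09 and 2.29.

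Pgam1, the phosphoglycerate mutase, went from 4808, 6495 and 4462 to 22474, 13916 and 16540 (log2 difference 1.74 ± 0.23, 3.34-fold, adjusted p = 0.000451). Eno3, an enolase best known from muscle, went from 1167, 982 and 935 to 2365, 1878 and 2272 (log2 difference 1.08 ± 0.24, 2.11-fold, adjusted p = 0.00843). Eno2, the neuronal enolase, lay below the floor on all 6 NK arrays. Pkm, the pyruvate kinase of lymphocytes, went from 8487, 5991 and 4495 to 25094, 19823 and 27746 (log2 difference 1.97 ± 0.24, 3.92-fold, adjusted p = 0.000342). Its splice forms, PKM1 and PKM2, are not told apart here.

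At the lactate end, Ldha and the transporter Slc16a1 rose and their partners did not pass. Ldha encodes the muscle-type lactate dehydrogenase subunit that favours lactate formation. Its signals were 21931, 17129 and 17507 at rest and 77819, 55366 and 64680 after IL-15, a log2 difference of 1.80 ± 0.19 (3.49-fold, adjusted p = 0.000151). Ldhb, the heart-type subunit, had 751, 645 and 484 at rest and 884, 257 and 871 after IL-15, so that 1 IL-15 array lay below and 2 above all resting arrays (log2 difference -0.08 ± 0.46, adjusted p = 0.919). The printed promoter window of Ldha holds 2 E-boxes, while the second Ldha window and the Ldhb window hold none. Slc16a1 and Slc16a3 go the same way. Pfkl and Pfkm go the other way, since only Pfkm, which did not pass, has an E-box. As given above, the E-box was in 2 of 16 genes that rose and in 2 of 13 tested genes that did not. The part of these letters in the change was not tested.

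Slc16a1, the monocarboxylate transporter MCT1 that carries lactate across the membrane, went from 1615, 1909 and 1437 to 7804, 6606 and 9284. Its log2 difference of 2.25 ± 0.21 (4.76-fold) had the smallest adjusted p of the 30 genes, 7.6e-05. Slc16a3, the low-affinity lactate exporter MCT4, stayed near the floor, with 404, 40 and 219 at rest and 432, 215 and 290 after IL-15. With 1 resting array below the floor, its log2 difference of 0.25 ± 0.37 (adjusted p = 0.663) is a lower bound on the difference. Bsg, the chaperone that carries both transporters to the membrane, was 0.74 ± 0.29 higher and did not pass (adjusted p = 0.0841). Emb, the other chaperone of this kind, rose by 0.85 ± 0.26 (adjusted p = 0.0338).

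**Figure D2:**
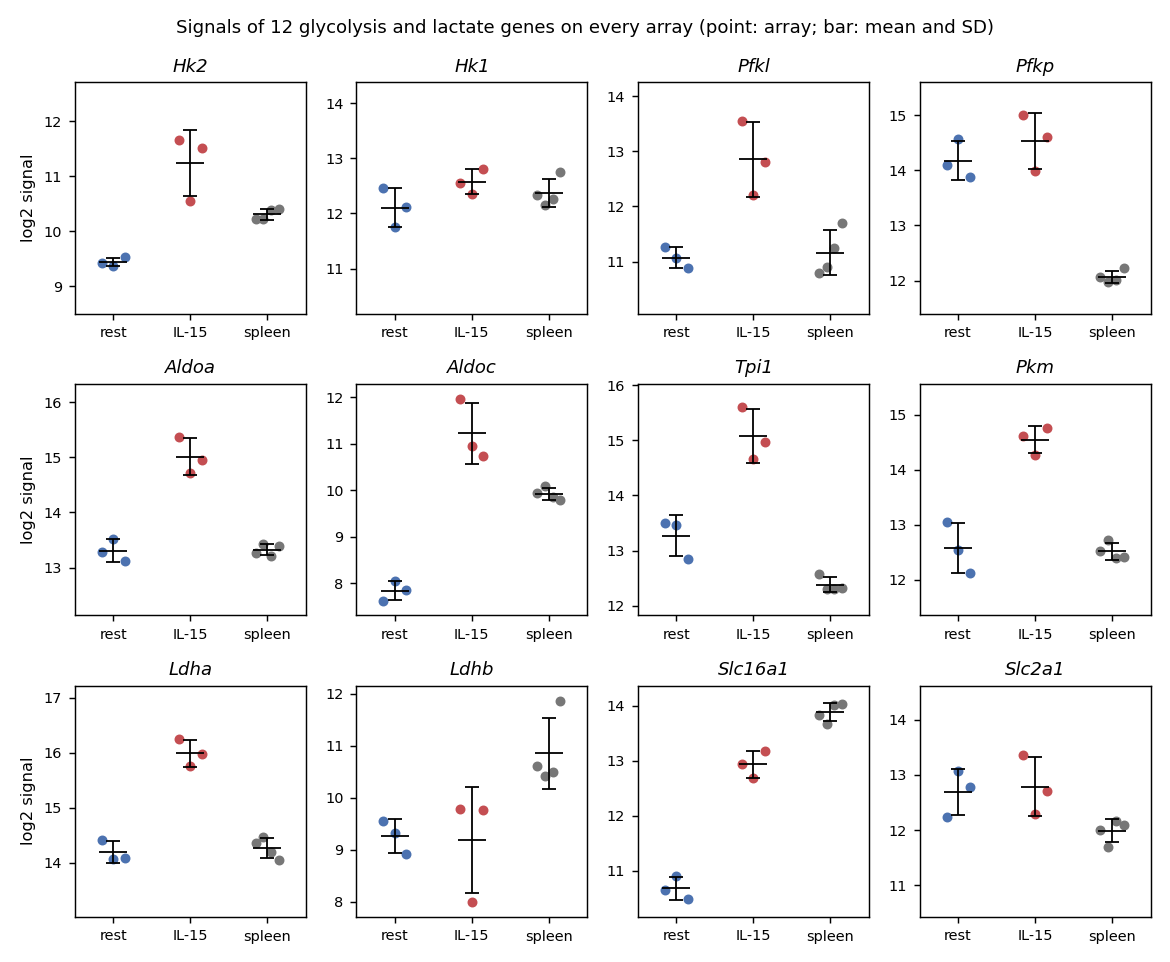
Log2 signals of 12 of the genes on every array (points), with the mean and SD of each group, for 3 resting NK arrays, 3 IL-15 NK arrays and 4 splenocyte chips; the y axes share a span of about the same number of log2 units but not an origin. In Hk2, Pfkl, Aldoa, Aldoc, Tpi1, Pkm, Ldha and Slc16a1 every IL-15 array lies above every resting array, while in Hk1, Pfkp, Ldhb and Slc2a1 the groups overlap.

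The pyruvate dehydrogenase complex, which feeds pyruvate into the citric acid cycle, changed less. Pdha1, its catalytic alpha subunit, went from 8538, 6763 and 7085 to 10733, 10636 and 11651 (log2 difference 0.57 ± 0.17, 1.48-fold, adjusted p = 0.0324). Dlat, its acetyltransferase core, went from 2373, 2234 and 2109 to 3900, 3124 and 3801 (log2 difference 0.68 ± 0.20, 1.61-fold, adjusted p = 0.0299). Pdhb, the beta subunit, did not pass, with 16337, 15862 and 15682 at rest and 17801, 14466 and 18935 after IL-15 (log2 difference 0.09 ± 0.17, adjusted p = 0.743). Neither Pdha1 nor Dlat rose 2-fold.

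Pdk3, a kinase that switches the complex off, went from 1045, 938 and 1266 to 1760, 3426 and 1810 (log2 difference 1.05 ± 0.31, 2.06-fold, adjusted p = 0.0295). Pdk1, the kinase known to answer to HIF, was even across resting arrays, at 4648, 4222 and 4476, and spread across IL-15 arrays from 2719 on replicate 3 through 5394 on replicate 2 to 13118 on replicate 1. Its log2 difference was 0.38 ± 0.44 (adjusted p = 0.572), and its SD among IL-15 arrays, 1.14 log2 units, was the widest of the 30 genes, against 0.07 at rest. Pdk2 lay at 189, 91 and 205 at rest and at 53, 35 and 55 after IL-15, near or below the floor.

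In the pentose phosphate pathway, Tkt rose and the other 3 genes did not pass. Tkt, the transketolase that links the pathway back to glycolysis, went from 29586, 58459 and 25376 to 68184, 68232 and 70932 (log2 difference 0.97 ± 0.28, 1.96-fold, adjusted p = 0.0274). Resting replicate 2 stood well above the other resting arrays and still below all IL-15 arrays. Another probe set of Tkt, 1451015_at, was higher by 1.55 ± 0.22 (adjusted p = 0.000808). Taldo1, the transaldolase, had 0.34 ± 0.23 (adjusted p = 0.317), and Rpia, the ribose phosphate isomerase, 0.05 ± 0.17 (adjusted p = 0.868).

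Pgd, the second NADPH-making enzyme of the pathway, gave different answers by probe set. The brightest probe set read 23864, 45845 and 25956 at rest and 35886, 32817 and 38624 after IL-15, a log2 difference of 0.23 ± 0.24 (adjusted p = 0.534), and 2 more probe sets of the cross-hybridising x type gave 0.20 and 0.01. The fourth, 1423706_a_at, read 4906, 3736 and 3608 at rest and 10297, 10508 and 12302 after IL-15, a log2 difference of 1.44 ± 0.19 (adjusted p = 0.000578). The 3 x-type probe sets share the high value on resting replicate 2, which the fourth does not show. With resting replicate 2 left out, the brightest probe set also rose, by 0.52 (adjusted p = 0.03). G6pdx, the entry enzyme, was not analysed here.

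Probe sets disagreed for other genes too. Of 16 genes with more than 1 tested probe set, all probe sets of 9 gave the same call, and 23 of 30 additional probe sets gave the call of the chosen one. For Aldoa, 3 additional probe sets were higher by 1.87 to 2.26 and 1447734_x_at was not called at -0.23. For Pfkl, 1450269_a_at was higher by 1.42 and 1453541_at was not called at -0.24, and for Dlat, 1426264_at was higher by 0.93 and 1452005_at was not called at -0.28. Pfkp, not called in its chosen probe set, was higher by 1.34 ± 0.44 in 1430634_a_at (adjusted p = 0.0479) and not called at -0.50 in 1437759_at. Many of these probe sets are of the a, s and x types, which can bind several transcripts or near-identical gene copies, as Gapdh, Ldha, Pgk1, Pgam1, Tpi1 and Aldoa are known to have among pseudogenes. Those values are to that extent uncertain. Against splenocytes the probe sets agreed less. In resting NK cells all probe sets of 5 of 19 genes gave the same call, and 20 of 38 additional probe sets gave that of the chosen one. In IL-15 NK cells these counts were 8 of 19 and 25 of 38.

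**Figure D3:**
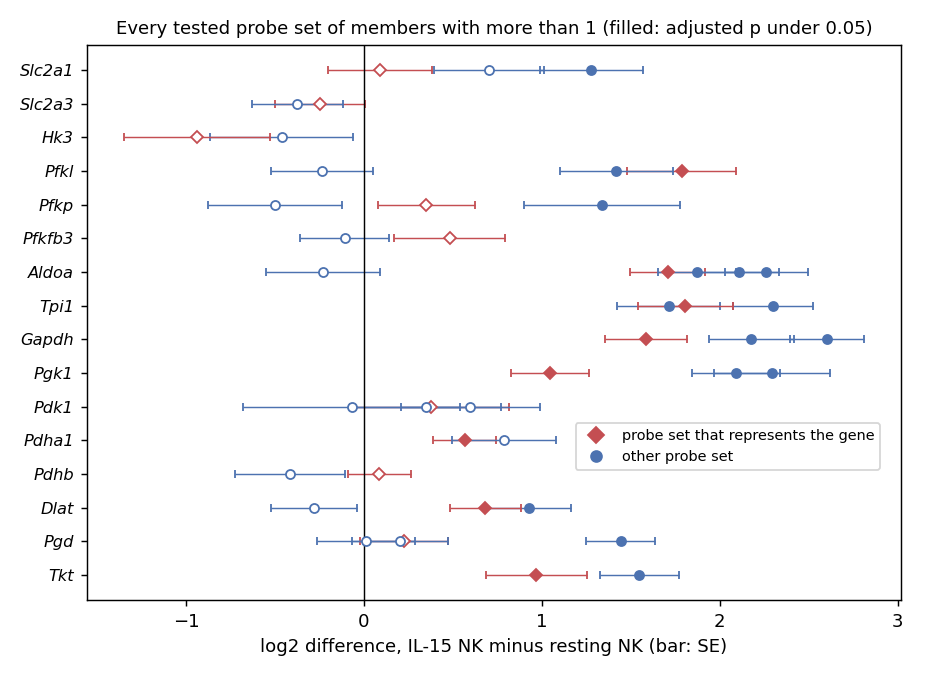
The log2 difference between IL-15 NK cells and resting NK cells (x axis, bars show the standard error) for every tested probe set of the 16 genes with more than 1; diamonds mark the probe set that represents the gene, circles the others, and filled symbols an adjusted p under 0.05. Tpi1, Gapdh, Pgk1 and Tkt have all their probe sets filled on the right, while Slc2a1, Pfkl, Pfkp, Aldoa, Pdha1, Dlat and Pgd hold filled and open symbols together.

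Alternative forms of the same step were then compared within arrays, as the log2 signal of 1 gene minus that of its partner. In 7 of 9 pairs the resting and IL-15 arrays did not overlap in this quantity. Each of the 7 holds at least 1 gene already called as risen, so the count in part repeats those calls. Pairs of other genes were not read in this way, so no share stands beside it. The pair difference changed by 2.74 for Hk2 against Hk3, at most 2.00 for Slc16a1 against Slc16a3, which lay below the floor on 1 resting array, 1.88 for Ldha against Ldhb, 1.83 for Pfkl against Pfkm and 1.43 for Pfkl against Pfkp, each in favour of the first gene. It moved towards Aldoc by 1.68 against Aldoa, and towards Hk2 by 1.34 against Hk1. Each of the 7 had an exact 2-sided permutation p of 0.1, the smallest that 3 arrays against 3 can give (0.129 after adjustment over the 9 pairs), so no pair passed 0.05. Slc2a1 against Slc2a3 changed by 0.34 and Pdk1 against Pdk3 by -0.67, both with overlap and p = 0.4 in the same exact test (adjusted p = 0.4).

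The IL-15 arrays were not equal for these genes. Replicate 1 had the highest IL-15 signal for 19 of the 30 tested genes, and replicate 2 the lowest for 22 of 30, with median deviations from the group mean of 0.23 and -0.24 log2 units. Over all genes tested the same medians were -0.008 and -0.001, which the common scaling of the arrays in large part fixes. Of all 11434 genes, replicate 1 had the highest IL-15 signal for 3918 and replicate 2 the lowest for 3855. Resting replicate 3 had the lowest resting signal for 15 of the 30 genes, against 3843 of all 11434. Against resting replicate 3 alone, the median log2 difference of these genes was 0.72, against -0.029 over all genes. B-cell markers on that array were at 0.792% of the splenocyte mean instead of 8.35% and 7.85%. It was the lowest resting array for 10 of the 16 genes that rose. It is also part of the comparison that called them, so this is no separate test. That array has the highest resting sums of macrophage and monocyte (13.1% of the splenocyte mean) and neutrophil markers (2.15%), and 1 array has no spread of its own.

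For 12 of the 16, the call held with each array left out and under every other setting that gives 1 value per gene: Hk2, Pfkl, Aldoa, Aldoc, Tpi1, Gapdh, Pgk1, Pgam1, Eno3, Pkm, Ldha and Slc16a1. Where every tested probe set had to pass, Pfkl and Aldoa were not among them, as described above. Pdk3, Pdha1, Dlat and Tkt each lost it with some arrays left out. For Tkt these were resting replicates 1 and 3 and each IL-15 array, for Dlat resting replicates 1 and 3 and IL-15 replicates 1 and 3, for Pdk3 resting replicates 1 and 2 and IL-15 replicate 2, and for Pdha1 all but resting replicate 1. With all probe sets of a gene averaged, Dlat and Tkt did not pass, under quantile normalization Pdha1 did not, and with every gene tested Pdk3 (adjusted p = 0.0687) and Tkt (adjusted p = 0.0878) did not. The log2 differences of the 4 stayed positive under every setting, between 0.45 and 1.45.

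A list of 54 genes of neighbouring steps of glucose metabolism that are not among the 35 was read in the same way. Of these, 36 were tested, 4 rose and 1 fell, against 14.2% and 12.1% of all genes, so the share that rose (11.1%) was near that of all genes. Of the 36 differences 27 were positive, with a median of 0.15. Those that rose were Slc16a6, a further member of the monocarboxylate transporter family, by 1.30 ± 0.22 (adjusted p = 0.00198), G6pc3, a glucose-phosphate phosphatase, by 1.05 ± 0.28 (adjusted p = 0.0192), Emb, given above, and Pgm3, of amino sugar synthesis, by 0.82 ± 0.26 (adjusted p = 0.0425). Pgm2l1, which makes glucose bisphosphate, fell by 1.01 on the log2 scale (SE 0.24, adjusted p = 0.0122). Whether the shares that rose, 16 of 30 and 4 of 36, differ was not tested.

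Between resting NK cells and splenocytes most of the genes did not pass the threshold, as was so over all genes. Of 31 tested, 4 were higher in resting NK cells and 5 lower, with 17.1% higher and 21.5% lower over all 12939 genes tested, and their median log2 difference was -0.06, against -0.057 over all genes. The 3 comparisons of the study share arrays, so their values are set side by side and not correlated.

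The higher genes were Pfkp, Pgd, Pgk1 and Tpi1. Pfkp read 4013 to 4766 on the splenocyte chips and at least 14985 on every resting NK array, a log2 difference of 2.11 ± 0.30 (4.32-fold, adjusted p = 0.000952). Pgd read 6139 to 9527 on the splenocyte chips and was 1.93 ± 0.28 higher in resting NK cells (3.82-fold, adjusted p = 0.000806), but the fourth probe set, which rose after IL-15, was 0.19 ± 0.19 higher (adjusted p = 0.487). Pgk1, with 13575 to 16256 in splenocytes, was 0.96 ± 0.22 higher (adjusted p = 0.00965), and Tpi1, with 5030 to 6117, was 0.90 ± 0.30 higher (adjusted p = 0.0444). For each of the 4, at least 1 other probe set gave another call, so no gene was higher by all its tested probe sets. The Tpi1 call was lost without resting replicate 1 or 2 and without splenocyte chip 2, 3 or 4, with every gene tested and with all probe sets averaged.

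The lower genes were Slc16a1, Aldoc, Eno3, Taldo1 and Pfkfb3. The other tested probe sets of Slc16a1 (-0.24, under the floor on all resting arrays) and Pfkfb3 (-0.50) were not called. Slc16a1 read 12992 to 16685 in splenocytes, a log2 difference of -3.20 ± 0.19 (9.20-fold lower in resting NK cells, adjusted p = 1.12e-05). Lactate transport by MCT1 is also a trait of red cell precursors, and the summed signal of 10 erythroid markers was 200828 to 293735 in splenocytes against 3183 to 4267 in resting NK cells. Chips 2, 1, 3 and 4 rank in this order for Slc16a1, the erythroid sum and the platelet sum, and in the reverse order for the B-cell sum. The order is thus not particular to erythroid markers, and the 4 chips are 2 biological samples. The part of erythroid cells in the difference was not tested. Aldoc read 883 to 1091 in splenocytes and was lower by 2.08 in resting NK cells (SE 0.37, 4.24-fold, adjusted p = 0.00273). Eno3, with 1796 to 2671, was lower by 1.15 (SE 0.23, adjusted p = 0.00453), Taldo1, with 19936 to 25278, by 1.02 (SE 0.25, adjusted p = 0.0123), and Pfkfb3, with 1215 to 1387, by 0.93 (SE 0.30, adjusted p = 0.0391). The Pfkfb3 call was lost without resting replicate 1 or 2, under quantile normalization (adjusted p = 0.0814), with the floor at the 20th percentile (adjusted p = 0.0561) and with every gene tested (adjusted p = 0.0565). In turn, with resting replicate 2 left out Tkt (-1.12, adjusted p = 0.000791) and Gapdh (-0.81, adjusted p = 0.0342) were also lower, and without splenocyte chip 4 Slc2a3 was higher (0.89, adjusted p = 0.0305) and Gapdh lower (-0.75, adjusted p = 0.0368). Without chip 2, Ldhb (-1.61, adjusted p = 0.0437) and Pdk2 (-0.68, adjusted p = 0.0209) were lower as well, and Ldhb also without chip 3 (-1.57, adjusted p = 0.0496). Ldhb was also lower with the floor at the 20th (adjusted p = 0.0457) or 60th percentile (adjusted p = 0.00531), and Gapdh under quantile normalization (-0.80, adjusted p = 0.0209). With the 4 chips as separate samples, which ignores that chips share a sample, Hk2, Gapdh, Ldhb, Pdk3 and Tkt were also lower and Slc2a1 and Slc2a3 higher. With every probe set fitted singly, other probe sets of some uncalled genes were lower. These were of Ldhb (-2.2 to -1.2), Pdk1 (-2.1 to -1.6), Gapdh (middle -1.2, 5′ end -3.3), Tkt (-1.0), Pdha1 (-1.3) and Hk1 (-2.4). Probe sets of Slc2a3 (1.7), Pfkl (1.0) and Dlat (0.8) were higher. Of these, 1420901_a_at of Hk1 and 1434499_a_at of Ldhb lay under the floor on all resting arrays and were tested only because of their signal in splenocytes.

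**Figure D4:**
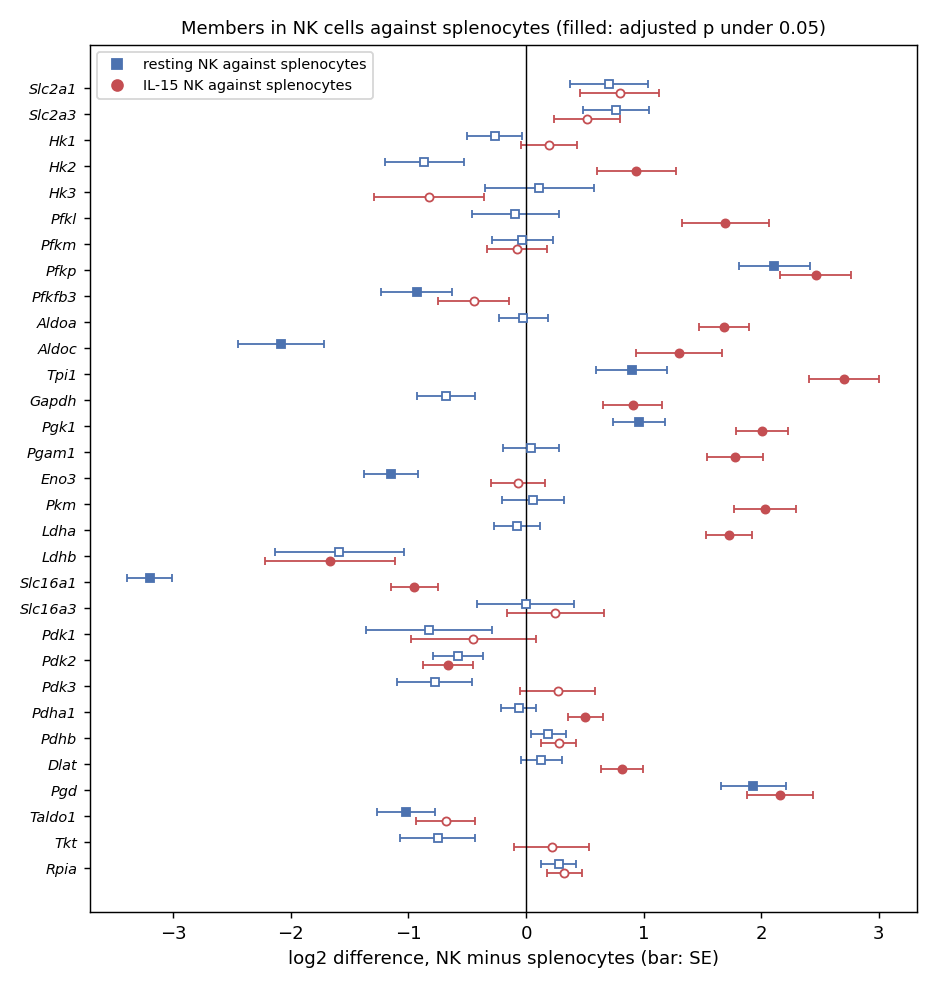
The log2 difference of resting NK cells (squares) and IL-15 NK cells (circles) from splenocytes (x axis, bars show the standard error, 3 NK arrays against 4 chips of 2 samples) for the 31 tested genes; filled symbols passed an adjusted p under 0.05. Squares are filled for 9 genes and circles for 17, and Aldoc lies at -2.08 for resting and 1.30 for IL-15 NK cells.

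After IL-15, 14 of 31 genes were higher than in splenocytes and 3 lower, with 20.8% higher and 23.5% lower over all 12466 genes tested. Their median log2 difference was 0.50, against -0.098 over all genes. The 5 genes with the largest differences were Tpi1 at 2.70 ± 0.30 (6.51-fold, adjusted p = 0.000223), Pfkp at 2.46 ± 0.30 (5.52-fold, adjusted p = 0.000381), Pgd at 2.16 ± 0.28 (4.47-fold, adjusted p = 0.00039), Pkm at 2.03 ± 0.26 (4.09-fold, adjusted p = 0.000495) and Pgk1 at 2.01 ± 0.22 (4.02-fold, adjusted p = 0.000218). Pkm read 5417 to 6794 on the splenocyte chips, close to the resting NK arrays and far under the 19823 of the lowest IL-15 array. The other 9 genes, Hk2, Pfkl, Aldoa, Aldoc, Gapdh, Pgam1, Ldha, Pdha1 and Dlat, were higher by 0.50 to 1.78. Hk2 passed narrowly (0.94 ± 0.34, adjusted p = 0.0495) and lost the call without IL-15 replicate 1 or 3 or splenocyte chip 1, 2 or 3, with the floor at the 20th percentile and with every gene tested. Gapdh lost it without IL-15 replicate 1, and Pdha1 without IL-15 replicate 3 and under quantile normalization. The control probe sets of Gapdh gave opposite calls here, with the middle one higher by 0.98 (adjusted p = 0.0184) and the 5′ one lower by 0.74 on the log2 scale (adjusted p = 0.032), so the direction for Gapdh depends on the probe set. With all probe sets averaged, Aldoc, Gapdh and Pdha1 did not pass. Slc2a1 passed as higher without IL-15 replicate 2 (1.05, adjusted p = 0.0354). With every probe set fitted singly, other probe sets of some uncalled genes passed. They were higher for Slc2a1 (1.38) and Slc2a3 (1.29) and lower for Hk1 (-2.23) and Pdk1 (-2.21 and -1.65).

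The genes below splenocytes after IL-15 were Ldhb, Slc16a1 and Pdk2. Ldhb read 1576, 1372, 1456 and 3740 on splenocyte chips 1 to 4 and was lower by 1.67 (SE 0.55, adjusted p = 0.0381) in IL-15 NK cells, a call lost without chip 4, under quantile normalization and with every gene tested. Its 3 other probe sets were also called lower, at -1.22, -2.16 and -1.59. Of these, 1434499_a_at (-1.22) and 1455235_x_at (-1.59) lay under the floor on all IL-15 arrays and were tested only because of their signal in splenocytes. Slc16a1 was still lower by 0.95 (SE 0.20, 1.93-fold, adjusted p = 0.00498), although it had risen from its resting level. Pdk2 read 190 to 386 on the chips and lay below the floor on all 3 IL-15 arrays, so splenocytes were at least 1.59-fold higher. It was tested only because of its signal in splenocytes and its IL-15 values all equal the floor, so its call carries no weight. Pdk1 passed as lower without IL-15 replicate 1 (-1.04, adjusted p = 0.0338), and Taldo1 without IL-15 replicate 2 (-0.85, adjusted p = 0.0289) or chip 3 (-0.71, adjusted p = 0.0445). Eno3 and Tkt were within -0.07 ± 0.23 (adjusted p = 0.838) and 0.22 ± 0.32 (adjusted p = 0.615) of splenocytes after IL-15.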

How the data were processed

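RNA of sorted spleen NK cells and whole splenocytes was measured on 10 Affymetrix MOE430_2 arrays. The authors deposited a linear intensity for each of 45101 probe sets on each array. GCOS 1.4 is the tool in the submitters' processing notes, and its summary algorithm is not given in the sources used here. The mean after trimming 2% at each end was 1500 on every array, so arrays were used as scaled. GEO's platform annotation, which can be old, gave 1 gene symbol to 34958 probe sets, several to 932 and none to 9211. By Entrez ID, 34754 of the 34958 were found in RefSeq GRCm38.p6, and 0 symbols changed. The 64 control probe sets were left out, except for Gapdh.

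Signals were floored at 179.85 and logged. Genes with 3 or more arrays over the floor in a comparison were tested with limma 3.58.1 (R 4.3.3, trended eBayes, 2-sided), and p-values were adjusted by Benjamini-Hochberg over all genes at a threshold of 0.05. Splenocyte comparisons used all 3 groups in 1 fit. The 4 chips can be paired in 3 ways. Each way was fitted with pair means, and the highest p counted. Splenocyte ranges are over chips. Pair contrasts used SciPy 1.17.1. The code was tested on simulated data.

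The 35 genes, the pathway and marker lists and the tests were chosen with earlier results of these data known. All 35 genes are named, with values per array for those that rose after IL-15 and for their isoform partners, and for up to 5 genes each way against splenocytes. Alternatives were quantile normalization, floors at the 20th and 60th percentiles, no filter, all probe sets averaged, each array left out, a replicate block, resting NK replicate 3 alone, 4 chips as separate samples and, added after seeing the data, every probe set singly.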

Additional observations from a re-analysis of the deposited data

Results flagged for a closer look

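Of the 32 genes, 7 had a splenocyte chip whose gap to the nearest other chip took up more of the range of the 4 chips than the 95% critical value of Dixon's test. Chance alone flags about 1 in 20 such groups, and the 4 chips are 2 biological samples, so they are not 4 independent values. Chip 4 read 9913 for Slc2a3, against 6696 to 7122 on the others, and 3740 for Ldhb, against 1372 to 1576. Chip 1 read 909 for Hk3 (others 1399 to 1434), 6117 for Tpi1 (others 5030 to 5103) and 245 for Eno2 (others 108 to 144, below the floor). Chip 2 read 6127 for Pdk1 (others 8364 to 8880), and chip 3 read 13182 for Pdhb (others 14208 to 14331). The NK groups have 3 arrays each and were not tested for such values.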

How the results depend on the processing

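The number of members called higher after IL-15 was 12 to 16 under all settings, and 13 to 15 with an array left out. The number of members called lower was 0 in the main comparison and in most settings, and 1 (Hk3) under a replicate block, against resting replicate 3 alone and without resting replicate 2, a range of 0 to 1 with an array left out. Leaving out an array gave 1120 to 1713 genes higher and 843 to 1540 lower, the lowest without IL-15 replicate 3. Against splenocytes, resting NK cells had 10 members lower with all probe sets averaged and 10 with 4 chips as separate samples, 4 to 7 with an array left out, and 0 higher where every tested probe set had to pass. With probe sets averaged, the added lower members were Hk1, Gapdh, Ldhb, Pdk1 and Pdha1. IL-15 NK cells had 5 members lower with all probe sets averaged, 1 to 3 with an array left out (1 without chip 4), and 7 higher where every tested probe set had to pass. Hk1 turned from 0.20 to -1.02 against splenocytes (IL-15 NK cells, adjusted p = 0.00267) when its probe sets were averaged, as 1420901_a_at was lower by 2.23 on the log2 scale. The change of Slc2a1 against Slc2a3 ranged from -0.032 to 0.67 with an array left out. Quantile normalization moved the median of all genes from -0.098 to 0.11 in IL-15 NK cells against splenocytes, and from -0.057 to 0.053 in resting NK cells against splenocytes. For genes not called under either setting, signs changed for 7 members after IL-15, 9 in resting NK cells against splenocytes and 6 in IL-15 NK cells against splenocytes. The cause of these changes was not tested.

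Same-numbered resting and IL-15 arrays had correlations of deviations of 0.10, 0.28 and 0.07 over 11434 genes. Resting replicates 1 and 2 correlated best with the IL-15 array of their own number, and resting replicate 3 with IL-15 replicate 1 (0.15). The design text speaks of pairs, but no source says what a number shares. With 3 arrays per group these correlations cannot show whether same-numbered samples were paired. With the replicate block, 16 members were higher and 1 lower (Hk3, adjusted p = 0.0267), of 1784 genes higher and 1638 lower. Signals near the floor limit Aldoc at rest, Slc16a3, Eno2 and Pdk2.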
